A study of Mus musculus with 2 samples.

Results

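Nuclei carrying RNA of the cell division cycle were picked out of fetal mouse lung and sorted into lineages. They were chosen by a rule on their RNA: at least 3 of 12 genes (Mki67, Top2a, Cenpe, Cenpf, Aspm, Kif11, Kif15, Knl1, Anln, Bub1b, Ect2 and Smc4) had to be detected with at least 1 unique molecular identifier (UMI). Barcodes entered with 200 or more genes detected and no more than 60% of UMIs from mitochondrial genes. The rule selected 836 of 9818 kept nuclei, 296 of 4572 in the library of the PBS group (PBS below) and 540 of 5246 in that of the OVA group (OVA below), and left 8982 remaining nuclei. They are called cycling nuclei below, although the rule reads RNA and not division itself.

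The lungs came from wild-type C57BL/6J fetuses on gestation day 18. The OVA group descended from a mother sensitized at 6 to 8 weeks of age on 2 days with 100 µg ovalbumin in alum and then given doses of 500 µg ovalbumin into the nose, repeated at intervals of 2 to 3 days, between days 4 and 17 of gestation. The PBS group descended from a mother given alum and PBS by the same routes. Lungs of 8 fetuses (OVA) or 9 fetuses (PBS) were pooled into 1 library per group, each from 1 dam, so every value compares these libraries and not the conditions. Group 2 innate lymphoid cells (ILC2s, sorted as CD45+ Lin- ST2+), CD45+ cells and EpCAM+ cells were mixed, and RNA and accessible chromatin were read from the same nuclei.

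A cell that divides passes from G1, where D-type cyclins and their kinases push the retinoblastoma proteins off the E2F factors, into S phase, where DNA is copied, and then through G2 into mitosis, where chromosomes are condensed, aligned and parted. S-phase genes such as the Mcm helicase and DNA polymerase subunits are switched on by E2F. Most genes of mitosis peak later, under the DREAM and MuvB-Myb-FoxM1 complexes. Before birth the lung holds dividing cells of several lineages, among them fetal macrophages, which seed the alveolar macrophage pool, as well as stromal, endothelial and epithelial cells.

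The rule genes belong mostly to the later part of the cycle. Mki67 coats mitotic chromosomes, Top2a untangles DNA, and Smc4 is a condensin subunit. Cenpe, Cenpf, Knl1 and Bub1b act at the kinetochore, where chromosomes meet the spindle. Kif11 and Kif15 are spindle motors, Aspm acts at spindle poles, and Anln and Ect2 act in the cleavage of the cell. The promoters of 4 of them are shown, all of which hold the TTTGAA letters named below. Accessibility at these starts, as at those of the other rule genes, was read in the same nuclei and was not used by the rule. Sequences are the 150 bases before the gene start from RefSeq (GRCm38.p6), on the gene's strand, with CCAAT (a box bound by NF-Y) and TTTGAA (the cell cycle genes homology region, or CHR) in capitals on either strand.
Mki67, chr7:135716380-135716529, minus strand: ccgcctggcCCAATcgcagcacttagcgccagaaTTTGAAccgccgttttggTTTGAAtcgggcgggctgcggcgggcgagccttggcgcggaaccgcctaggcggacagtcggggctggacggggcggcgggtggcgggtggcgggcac
Top2a, chr11:99024190-99024339, minus strand: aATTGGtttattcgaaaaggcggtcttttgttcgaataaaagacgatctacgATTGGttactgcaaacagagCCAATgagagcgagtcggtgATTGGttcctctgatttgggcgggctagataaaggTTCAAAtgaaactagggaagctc
Kif11, chr19:37376232-37376381, plus strand: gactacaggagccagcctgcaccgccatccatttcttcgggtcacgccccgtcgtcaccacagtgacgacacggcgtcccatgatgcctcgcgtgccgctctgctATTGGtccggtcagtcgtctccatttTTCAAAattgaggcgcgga
Kif15, chr9:122950931-122951080, plus strand: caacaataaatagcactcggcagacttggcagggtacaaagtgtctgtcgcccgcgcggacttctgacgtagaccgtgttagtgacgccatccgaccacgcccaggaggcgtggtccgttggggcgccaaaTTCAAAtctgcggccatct

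CHR letters began 19 bases before the start in Kif11 and Kif15 and 23 bases before it in Top2a. Within 250 bases before the start, CCAAT stood in 9 of the 12 windows listed for 11 of the rule genes (Ect2 has more than 1 window, and Smc4 was not matched). The CHR letters stood in 6 of these windows. By gene, CCAAT stood in 8 and the CHR letters in 5 of the 11 genes. The 4 promoters printed above belong to these 5, so they do not stand for the other rule genes. Over all 32851 promoter windows of the same length, 33.8% held CCAAT and 15.99% held the CHR letters. The E2F letters GCGGGAA stood in 0 of the 12 windows and in 3.82% of all. The letters are a description of these windows, and no binding was measured.

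A few barcodes stood far apart in depth. Of the cycling nuclei, 11 of PBS and 8 of OVA had more than 25000 gene UMIs and held 45.7% and 30.6% of the nuclear-gene UMIs of all cycling nuclei, against 1 and 8 such barcodes among the remaining nuclei. Of the 19, 9 were Endothelial-like, 3 Ciliated-like and 7 in unnamed clusters. Their summed rule-gene level was 554 counts per 1000000 nuclear-gene UMIs (CPM; PBS, 490 to 624, exact 95% Poisson interval) and 551 (OVA; 493 to 614). The other cycling nuclei had 3487 and 3805 CPM and the remaining nuclei 290 and 219. The level of the deep barcodes was thus far nearer to that of the remaining nuclei. The libraries shared 54 barcode sequences, 4 of them in cycling nuclei of PBS and 0 in those of OVA. All intervals cover counting error only.

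Among the cycling nuclei, Smc4 was the rule gene met most often, in 70.6% of those of PBS and 80.4% of those of OVA. Top2a was met in 55.7% and 66.5%, Mki67 in 56.4% and 61.5% and Kif15 in 44.9% and 60.4%, while Aspm (12.8% and 19.3%) and Bub1b (13.5% and 17.2%) were rare. These shares were fixed in part by the rule. Over all nuclei of a class, Mki67 was met in 13.2% of Macrophage-like nuclei of PBS and 17.0% of those of OVA, at median depths of 728 and 1249 nuclear-gene UMIs. In Alveolar type 1 (AT1)-like nuclei, taken as a class that divides little, it was met in 2.31% and 3.37% at 664 and 1432 UMIs. Smc4 was met in 14.6% and 22.7% of AT1-like nuclei, so it marks cycling less sharply than Mki67. Cycling nuclei with all 12 genes numbered 2 (PBS) and 6 (OVA).

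Nuclei at the edge of the rule differed little in depth. The 94 PBS nuclei with exactly 3 rule genes had a median of 1160 nuclear-gene UMIs, and the 180 with 2 rule genes, just outside, had 1090. Summed mitosis genes outside the rule stood at 3721 CPM just inside and 3014 just outside. In the OVA library the 116 nuclei with 3 genes had a median of 1654 UMIs and the 207 with 2 genes 1836, and mitosis genes stood at 4807 and 1754 CPM. The step at the edge was thus small in PBS and larger in OVA. Deep barcodes were kept in these sums, and the step was not computed without them, so the difference between libraries may rest on few barcodes. No test was made, since the rule read the same RNA.

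Cycling nuclei made up 6.47% of PBS (5.78 to 7.23, exact Clopper-Pearson interval) and 10.3% of OVA (9.48 to 11.1). Depth differed in the same direction: the remaining nuclei had a median of 653 nuclear-gene UMIs in PBS and 1180 in OVA, and cycling nuclei had 1373 and 2029. Within depth classes the order of the libraries was not uniform. From 500 to under 1000 UMIs the share was 3.54% (PBS) and 2.10% (OVA), a higher share in the PBS library. From 1000 to under 2000 UMIs the share was 14.1% (PBS) and 11.8% (OVA), from 2000 to under 4000 UMIs 16.9% and 19.1%, and from 4000 UMIs 26.6% and 26.1%. When nuclei were thinned to 500 nuclear-gene UMIs, a step that dropped 1452 (PBS) and 525 (OVA) shallower ones, 85 of 3120 (2.72%) and 150 of 4721 (3.18%) met the rule, a difference of 0.45 percentage points (-0.34 to 1.22). Thinned to 1000 UMIs, 137 of 1399 (9.79%) and 311 of 3292 (9.45%) met it, with 3173 and 1954 nuclei left out. Over all nuclei, a difference between the libraries was therefore not detectable after thinning to equal depth. The summed rule genes over all kept nuclei, which needs no call per nucleus, stood at 670 CPM in PBS and 753 in OVA, a log2 difference of 0.17 (0.11 to 0.23), and of 0.065 when the libraries were given the same mix of classes.

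**Figure D1:**
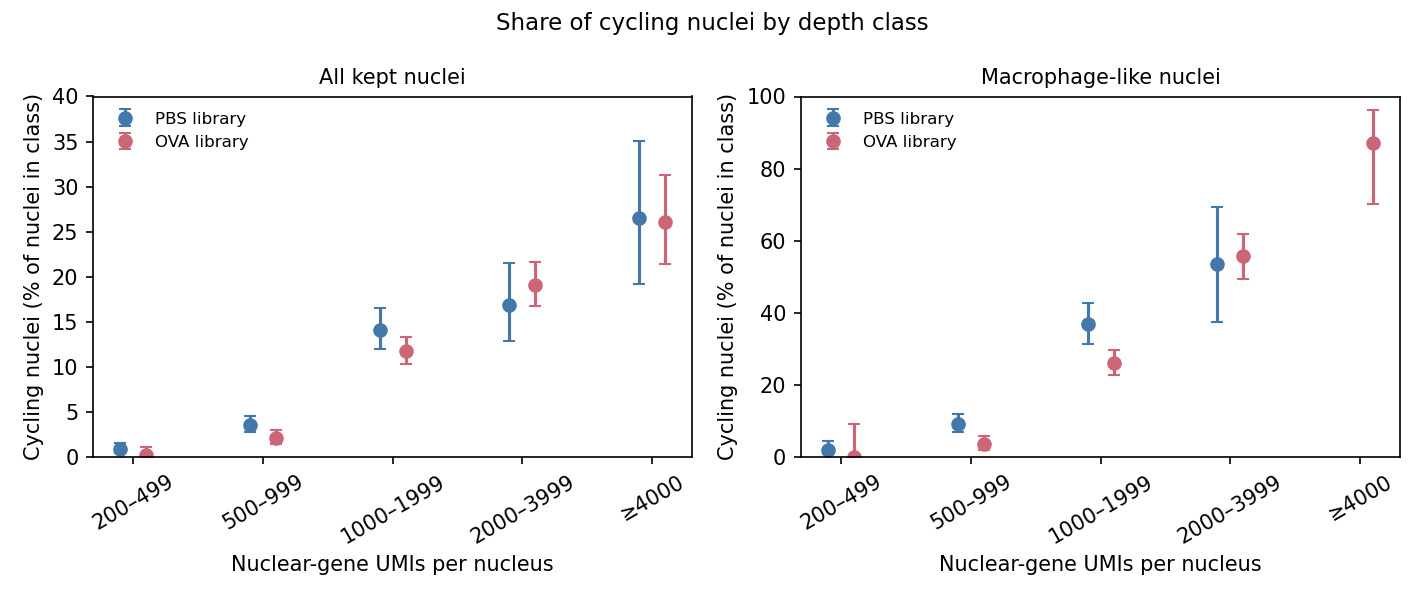
Cycling nuclei as a percentage of all kept nuclei (left) and of Macrophage-like nuclei (right) in classes of nuclear-gene UMIs per nucleus, for the PBS library and the OVA library; bars are exact 95% intervals and classes with under 10 nuclei are left out. In both libraries the share climbs with depth, from under 1% below 500 UMIs to 26.6% and 26.1% from 4000 UMIs in all nuclei.

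Lineages were taken from markers other than cell cycle genes: clusters were built on the remaining nuclei alone, and each cycling nucleus received the class of most of its 15 nearest remaining nuclei. Macrophage-like nuclei made up 548 of the 836 cycling nuclei (65.6%), 187 in PBS and 361 in OVA. ILC2-like nuclei followed with 48 (5.74%), Fibroblast-like with 34, Endothelial-like with 22, Pericyte-like with 21, Ciliated-like with 15, AT2-like with 14, and AT1-like and Myofibroblast-like with 12 each. Dendritic cell-like nuclei numbered 10, B cell-like 6, Mast cell or basophil-like 5 and Monocyte-like 4. Mesothelial-like and Neutrophil-like nuclei numbered 2 each. No Airway secretory-like nucleus of 57 met the rule, and 81 cycling nuclei lay near clusters that were left unnamed. Fibroblast-, Pericyte-, Myofibroblast- and Endothelial-like nuclei lie outside the sort gates (CD45+ or EpCAM+) that the study describes.

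**Figure D2:**
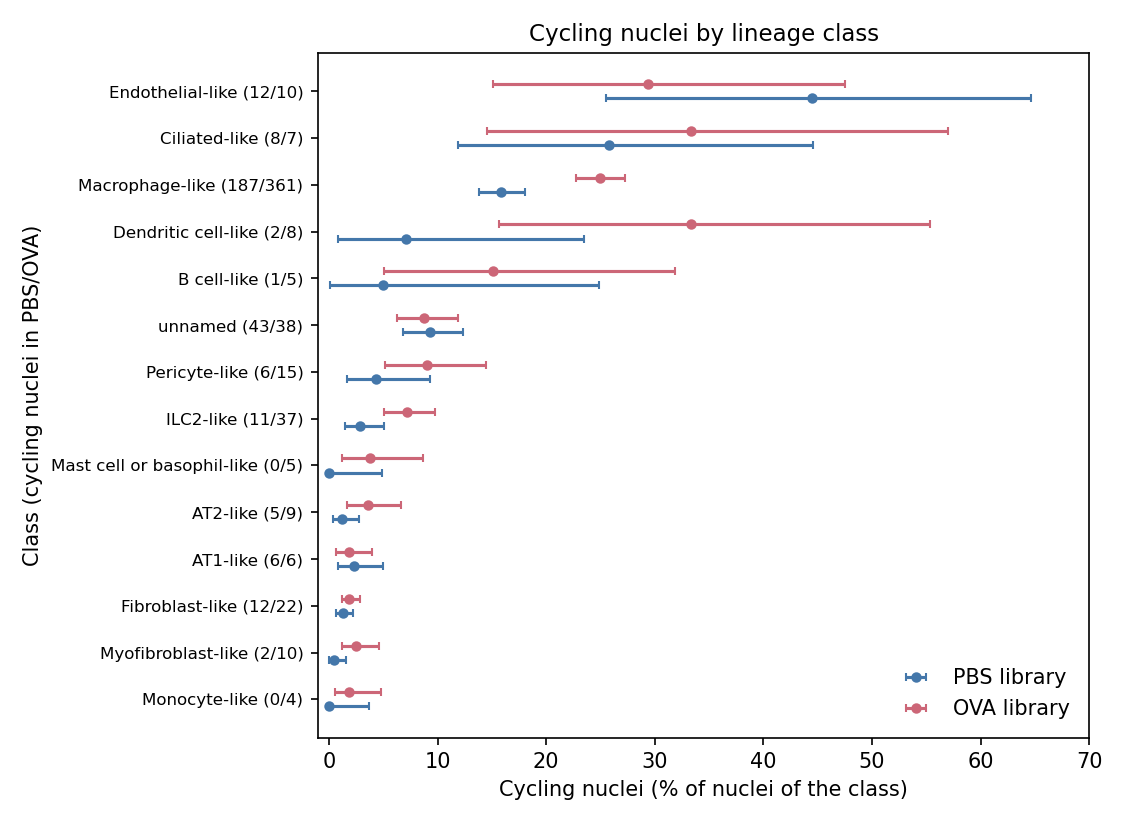
Cycling nuclei as a percentage of the nuclei of each class (horizontal axis) in PBS and the OVA library, with exact 95% intervals; numbers in brackets are the cycling nuclei in PBS and OVA, and classes with at least 20 nuclei in each library are shown. Among classes with at least 50 nuclei in each library, Macrophage-like nuclei have the highest share, 15.9% and 25.0%.

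Macrophage-like cycling nuclei held markers of macrophages, mostly at levels below those of the remaining Macrophage-like nuclei. The 3 markers with most UMIs are given first. Mrc1, the mannose receptor, stood at 554 CPM in cycling and 686 in remaining nuclei of PBS, and at 491 and 923 in OVA. F13a1, a coagulation factor subunit made by macrophages, stood at 413 and 467 (PBS) and at 491 and 651 (OVA). Mertk, a receptor for the uptake of dying cells, stood at 353 and 496 (PBS) and at 379 and 666 (OVA). In cycling nuclei of other classes Mrc1 stood at 19.6 and 76.8 CPM, F13a1 at 22.1 and 58.7 and Mertk at 82.1 and 128. The 3 markers were thus 0.71 to 0.88 times as high as in remaining Macrophage-like nuclei in PBS and 0.53 to 0.75 times in OVA. Less abundant markers were lower by more in PBS. Csf1r stood at 48.1 against 119 CPM (PBS) and 75.8 against 135 (OVA), and Cd68 at 56.2 against 106 and 48.5 against 63.6. Adgre1 stood at 108 against 178 and 117 against 207. Mrc1 was met in 183 of the 548 cycling nuclei, Csf1r in 59 and C1qa in 6.

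In the largest Macrophage-like clusters, led by Nrg4 and by Sh2d1b1, the share of cycling nuclei differed more between clusters than between libraries. Near the cluster led by Nrg4, Dpep2 and Lrp8, 69 of 256 PBS nuclei (27.0%) and 302 of 1032 OVA nuclei (29.3%) were cycling. Near the cluster led by Sh2d1b1 and Ear2, 104 of 755 (13.8%) and 32 of 256 (12.5%) were. Different clusters therefore held most of the class in each library, and the class-wide shares of 15.9% (13.8 to 18.1) and 25.0% (22.8 to 27.3) rest in part on that mix. The clusters also differed in depth, with medians of 1150 (PBS) and 1406 (OVA) UMIs against 585 and 724, while their rule-gene levels were 1763 and 1670 against 1634 and 1450 CPM. In the smaller clusters the libraries lay apart. Near the cluster led by Atp6v0d2 and Gpnmb the shares were 8.40% (10 of 119, PBS) and 17.5% (18 of 103, OVA). Rule-gene levels there were 539 and 1024 CPM, a log2 difference of 0.93 (0.54 to 1.32). Near the cluster led by Fcrls and Cd163 the shares were 8.33% (4 of 48) and 16.4% (9 of 55). Clusters were built without aligning the libraries, so cluster and library cannot be fully told apart.

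At equal depth the order of the libraries did not hold in this class. From 500 to under 1000 UMIs, 9.22% (6.94 to 11.9) of PBS and 3.57% (2.05 to 5.74) of OVA nuclei were cycling. From 1000 to under 2000 UMIs 37.0% (31.4 to 42.8) and 26.2% (22.9 to 29.6) were, and from 2000 to under 4000 UMIs 53.7% and 55.7%. Thinned to 500 UMIs, 6.87% of Macrophage-like nuclei of PBS and 6.47% of those of OVA met the rule. Thinned to 1000 UMIs, 28.4% of 335 and 22.5% of 959 did, a difference of -5.83 percentage points (-11.6 to -0.32). The summed rule genes differed by 0.07 on the log2 scale (-0.02 to 0.16). S-phase genes differed by 0.22 (0.16 to 0.28) and mitosis genes outside the rule by 0.12 (0.06 to 0.18), OVA over PBS, which are small differences between single libraries.

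ILC2-like cycling nuclei numbered 11 of 381 in PBS (2.89%; 1.45 to 5.11) and 37 of 514 in OVA (7.20%; 5.12 to 9.79). Their most abundant markers were Rora, a nuclear receptor that ILC2s need to develop, in 43 of 48 nuclei, and Ikzf3, an Ikaros family factor, and Calca, the gene of calcitonin gene-related peptide, in 33 each. Doublet calls took 4 of the 11 and 7 of the 37. Thinned to 500 UMIs, 4 of 167 and 10 of 443 ILC2-like nuclei met the rule (2.40% and 2.26%). The difference at this depth was -0.14 percentage points (-3.95 to 2.40), too wide to tell the libraries apart. The summed rule genes stood at 733 (624 to 855) and 809 (738 to 886) CPM.

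Calca was the gene outside the cell cycle lists with the lowest ratio of cycling to remaining nuclei that held in both libraries. In ILC2-like nuclei it stood at 1215 CPM in cycling and 4861 in remaining nuclei of PBS, and at 1527 and 6156 in OVA, a ratio of 0.25 in each (0.16 to 0.37 and 0.21 to 0.29). Calca was met in 4 of 11 cycling and 245 of 370 remaining nuclei (PBS), and in 29 of 37 and 375 of 477 (OVA). Without doublet calls the ratios were 0.39 and 0.23, from 2 of 7 (PBS) and 23 of 30 (OVA) cycling nuclei with Calca. Gata3, the master factor of ILC2s, had ratios of 0.57 and 0.53, and Il1rl1, which encodes the IL-33 receptor ST2, had 0.60 and 0.43. Rora had 1.08 and 0.70. Ret, a receptor kinase for glial cell line-derived factors with 82.9% of its UMIs in ILC2-like nuclei, stood at 1 UMI in the 11 cycling nuclei against 83 in 370 (PBS) and at 14 in 37 against 231 in 477 (OVA), a ratio of 0.31 (0.17 to 0.54) in the OVA library.

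Stromal classes gave 2 kinds of picture. Fibroblast-like nuclei were rarely cycling, 12 of 923 in PBS (1.30%) and 22 of 1161 in OVA (1.89%), but the cycling ones had a rule-gene level of 6713 CPM, against 3770 in Macrophage-like cycling nuclei. Limch1, an actin-binding regulator, was met in 32 of the 34 and the collagen gene Col1a1 in 29. Pericyte-like nuclei were cycling in 6 of 137 (4.38%) and 15 of 166 (9.04%), with Pdgfrb, the receptor that marks these mural cells, and Gucy1a1, a guanylate cyclase subunit, in 18 of 21 each. Myofibroblast-like nuclei were cycling in 2 of 469 and 10 of 397, with Hhip, a Hedgehog inhibitor, in 11 of 12.

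Among epithelial classes, AT2-like and AT1-like nuclei seldom met the rule. Ciliated-like nuclei met it more often, in 8 of 31 (25.8%) in PBS and 7 of 21 (33.3%) in OVA. AT2-like nuclei, the surfactant-making cells, were cycling in 5 of 418 (1.20%) in PBS and 9 of 253 (3.56%) in OVA. All 14 held the surfactant gene Sftpc, at 18626 and 21305 CPM against 30052 and 29097 in remaining AT2-like nuclei, but so did 42.1% of all other cycling nuclei. AT1-like nuclei, the flat gas-exchange cells, were cycling in 6 of 260 (2.31%) and 6 of 326 (1.84%), and all 12 held Ager. Without doublet calls the AT1-like shares were 0.79% and 1.28%, and the AT2-like shares 0.75% and 2.47%.

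Ciliated-like nuclei met the rule without much of its best known gene. Mki67 was found in 3 of 15 Ciliated-like cycling nuclei, against 317 of 548 Macrophage-like ones, whereas Top2a and Smc4 were found in 11 each, Ect2 in 10 and Knl1 in 9. Their rule-gene level was 791 CPM, against 216 in remaining Ciliated-like nuclei, and Cdk1, the kinase that drives mitosis, gave 5 UMIs in all. They did carry genes of centriole amplification, the step in which a cell builds the many basal bodies of its cilia. Cdc20b stood in 8 of 8 PBS nuclei at 5377 CPM against 889 in the 23 remaining ones, and Deup1, a deuterosome component, stood in 8 of 8 at 1305 against 277. In the OVA library Cdc20b stood in 4 of 7 at 266 CPM and in 0 of 14 remaining nuclei, and Deup1 in 5 of 7. The axonemal dynein gene Dnah5 went the other way, at 119 against 1146 CPM (PBS) and 705 against 1573 (OVA). Cdc20b and the other genes of this step were looked up after values had been seen.

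Endothelial-like cycling nuclei were the deepest barcodes. The 22 nuclei had a median of 17703 nuclear-gene UMIs, from 457 to 199289, and 9 of them lay above 25000 gene UMIs. Pecam1, an adhesion protein of vessel lining, was met in 20, the VEGF receptor gene Flt1 and the phosphatase gene Ptprb in 19 each, and the leukocyte gene Ptprc gave 3 UMIs. Haemoglobin genes gave 5858 UMIs, of which 5816 came from 5 nuclei. The erythroid gene Alas2, which encodes the enzyme that starts haem synthesis, gave 5 UMIs (PBS) and 9 UMIs (OVA) in all the deep barcodes. The rule-gene level was 807 CPM, against 237 in the remaining Endothelial-like nuclei.

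Of the smaller classes, B cell-like cycling nuclei had the highest rule-gene level, 8341 CPM in 6 nuclei. All of these held Ebf1, as did 7.11% of other cycling nuclei. Ighm was met in 5 of the 6, Pax5 in 3, Cd79a and Cd79b in 1 each, and Ms4a1 and Bank1 in 0. Dendritic cell-like nuclei were cycling in 2 of 28 (PBS) and 8 of 24 (OVA), with the class II genes H2-Ab1 and H2-Aa in 9 of 10 each. Hdc, Cpa3 and Kit marked all 5 Mast cell or basophil-like cycling nuclei, which came from the OVA library, where 131 nuclei had this class, while 0 of 73 were found in PBS, where the exact interval reaches 4.93%. Among the unnamed clusters, 12 cycling nuclei lay near one led by the natural killer receptor genes Klra5 and Klrc2 (4 of 20 and 8 of 58), where rule genes stood at 3877 and 1758 CPM. Doublet calls took 32 of the 81 unnamed cycling nuclei and 16.2% (PBS) and 7.96% (OVA) of all cycling nuclei, against 5.73% and 4.40% of the remaining ones. Leaving doublet calls out gave shares of 15.3% (PBS) and 24.5% (OVA) in Macrophage-like, 1.92% and 6.13% in ILC2-like, 2.42% and 8.90% in Pericyte-like and 0.99% and 1.90% in Fibroblast-like nuclei.

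Gene levels of cycling and remaining nuclei were next compared within classes (a Mantel-Haenszel ratio of UMIs per nuclear-gene UMI, with the class as stratum). In the PBS library 139 of 7482 genes with at least 100 UMIs were at least 2-fold higher in cycling nuclei (1.86%) and 104 at least 2-fold lower (1.39%). In the OVA library 280 of 9553 were higher (2.93%) and 129 lower (1.35%). Without the deep barcodes 147 and 164 (PBS) and 289 and 183 (OVA) were, so the number of lower genes in the PBS library rests on them. Because the rule chose nuclei on the RNA of these same libraries, and because genes low everywhere but in cycling nuclei pass the minimum only through them, these counts are descriptions.

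Genes of mitosis outside the rule were higher in cycling nuclei almost throughout. Of 80 listed genes 27 had 100 UMIs in the PBS library, and 26 of them were at least 2-fold higher, with a median ratio of 5.18, where the median over all genes was 1.02. In the OVA library 50 passed the minimum and 48 were higher, with a median of 8.48 against 1.01. Diaph3, an actin nucleator of the dividing cell, had ratios of 5.59 (PBS) and 8.57 (OVA), and its levels in Macrophage-like nuclei were 658 against 144 and 763 against 110 CPM. Cit, a kinase of the midbody, had 5.57 and 8.30, Neil3, a DNA glycosylase, 8.14 and 14.1, and Incenp, of the chromosomal passenger complex, 3.41 and 5.34. Lmnb1, a nuclear lamin gene, was not at least 2-fold higher in either library (1.65 and 1.51). Pttg1 (securin), which had too few UMIs in PBS, stood at 0.79 in OVA.

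S-phase genes were higher by less. In the PBS library 12 of the 24 tested of 66 listed genes were at least 2-fold higher (median ratio 2.00), and in OVA 34 of 44 (median 2.62). Atad2, a chromatin ATPase of replicating cells, had ratios of 2.46 and 3.03, and Rrm1, the large subunit of the enzyme that makes deoxynucleotides, 2.57 and 4.41. Pola1, the catalytic subunit of the priming polymerase, had 1.98 and 2.70, and 2.16 in PBS without the deep barcodes. Prim2, of the same complex, had 1.44 (1.08 to 1.93) in PBS and 2.69 (2.27 to 3.20) in OVA. Replication histone genes could hardly be read: 2 of 67 passed the minimum, with ratios from 0.85 to 1.55 over both libraries, and the mature forms of these RNAs lack the poly(A) tail that the kit captures.

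Drivers of G1 and brakes on the cycle differed little. Of the 8 drivers tested in PBS 0 were at least 2-fold higher, and 1 of 9 in OVA, E2f2, a transcription factor of S-phase entry, with 1.70 (1.15 to 2.52) and 3.09 (2.13 to 4.48). Without the deep barcodes E2f2 passed 2-fold in PBS also (2.11), as 1 of 7 drivers tested. The kinase gene Cdk6 had 0.87 and 0.91 and the cyclin gene Ccnd3 0.92 and 0.74. Ccnd1 had 1.38 (0.76 to 2.50) and 0.58 (0.39 to 0.87), from few nuclei. Among the brakes 1 of 12 (PBS) and 1 of 14 (OVA) was higher, in both libraries Rbl1 (p107), at 2.94 (1.98 to 4.36) and 3.61 (2.73 to 4.77), itself an E2F target. The antiproliferative gene Btg1 had 0.77 and 0.74, Btg2 0.86 and 0.82, and Cdkn1a (p21) 1.07 and 1.13.

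**Figure D3:**
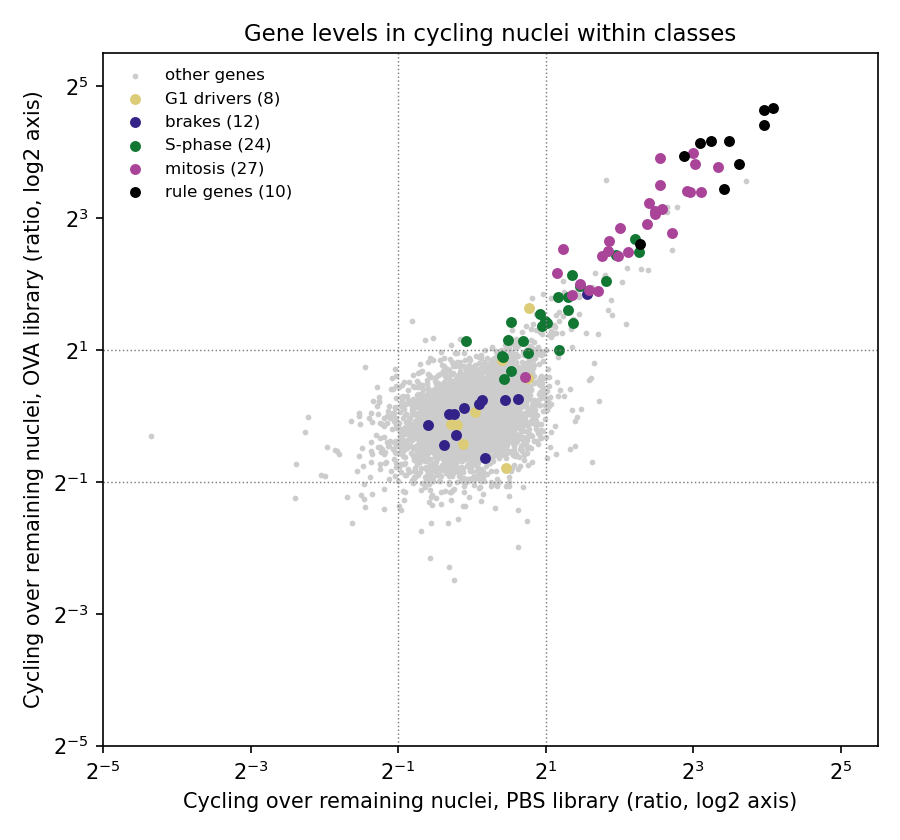
Ratio of gene level in cycling over remaining nuclei within classes, PBS library on the horizontal and OVA library on the vertical axis (both log2), for genes with at least 100 UMIs in each; colours mark the gene lists, dotted lines 2-fold. Rule and mitosis genes lie at the upper right, S-phase genes lower on the same diagonal, and drivers and brakes near equality, apart from Rbl1 and E2f2.

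The balance of S-phase to mitosis RNA differed between classes. Over all cycling nuclei the S-phase list gave 0.56 UMIs per UMI of the mitosis list in PBS (0.53 to 0.59) and 0.61 in OVA (0.59 to 0.63), against 1.07 and 1.28 in remaining nuclei. Macrophage-like cycling nuclei had 0.59 (0.54 to 0.63) and 0.72 (0.70 to 0.75). Fibroblast-like cycling nuclei had 0.33 (0.29 to 0.39) and 0.29 (0.25 to 0.33), and Pericyte-like ones 0.24 (0.18 to 0.33) and 0.34 (0.28 to 0.41). In both libraries these intervals lay below those of Macrophage-like nuclei. They count UMIs and not nuclei, and 6 Pericyte-like nuclei gave the PBS value. The median number of rule genes met was 6.5 (PBS) and 9 (OVA) in Fibroblast-like, 7.5 and 5 in Pericyte-like and 4 and 5 in Macrophage-like cycling nuclei. With at least 4 rule genes required, the ratio over all cycling nuclei was lower (0.53 and 0.57). Whether the class difference follows from the rule was not tested. ILC2-like cycling nuclei had 0.45 (0.34 to 0.59) and 0.63 (0.56 to 0.70), and their intervals overlapped those of Macrophage-like nuclei in both libraries.

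**Figure D4:**
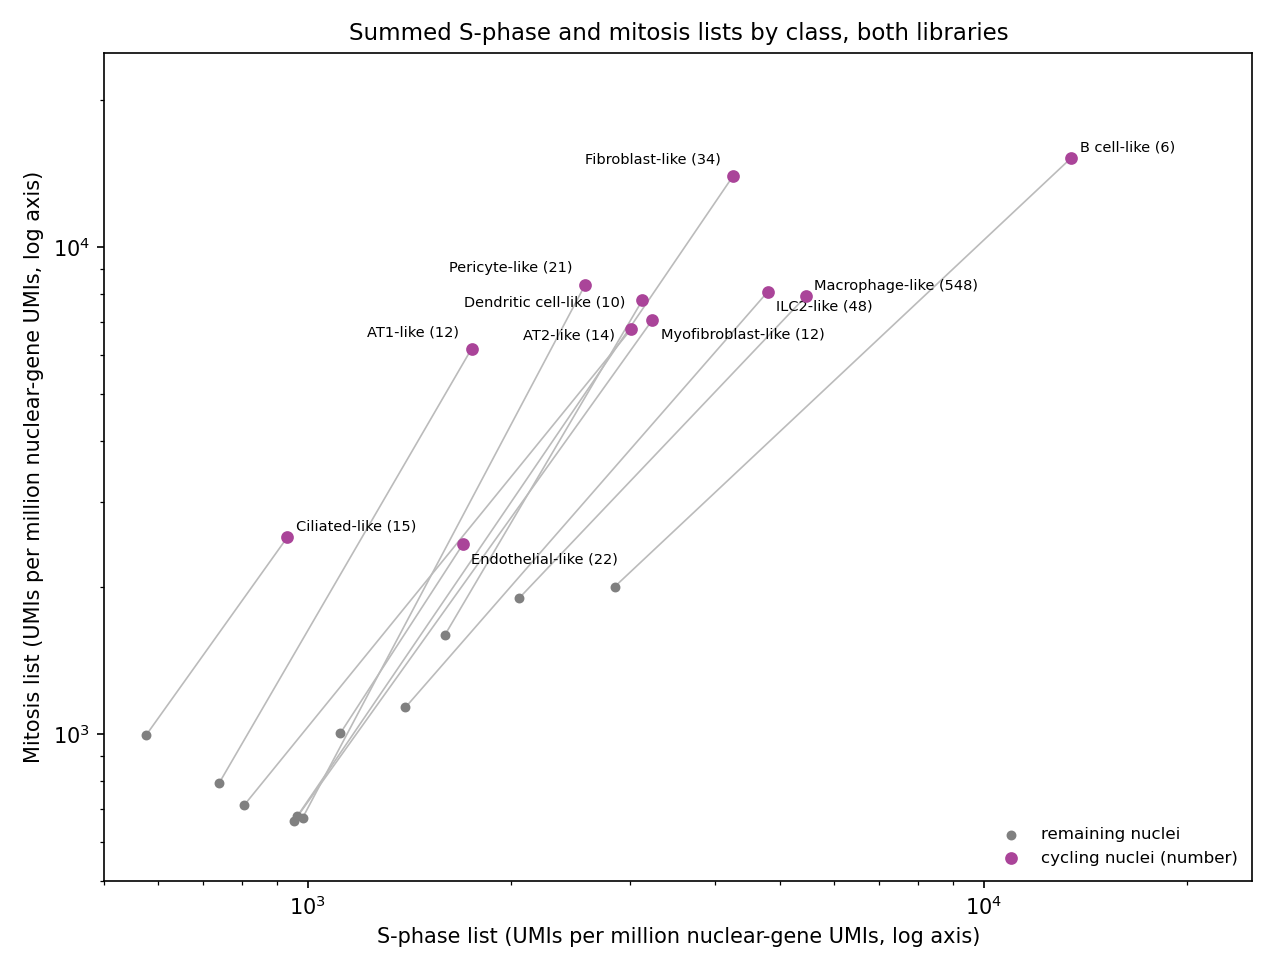
Summed level of the S-phase list (horizontal) and of the mitosis list without rule genes (vertical), in CPM on log axes, in cycling nuclei (purple, number of nuclei in brackets) and remaining nuclei (grey) of each class, joined by a line, both libraries together. Cycling nuclei of every class shown lie above the remaining ones on both axes, with Ciliated-like and Endothelial-like nuclei lowest on the mitosis axis at 2536 and 2452 CPM.

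Within cycling nuclei, the rule genes themselves lay at different points of this balance. Leaving out the deep barcodes, nuclei in which Cenpf was detected had 2.87 (PBS) and 2.80 (OVA) mitosis UMIs per S-phase UMI, against 1.62 and 1.33 in those without it. Aspm gave 2.67 and 2.68 against 1.86 and 1.44, and Cenpe 2.46 and 2.24 against 1.66 and 1.24. Kif15 made no such difference, at 1.93 and 1.67 against 2.12 and 1.63. Mki67 gave 1.99 against 2.05 in PBS and 1.73 against 1.52 in OVA.

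Outside all lists, the highest ratios that held in both libraries included genes of the centromere and centrosome. Cenpp, a subunit of the inner kinetochore, had 13.1 (9.96 to 17.3) in PBS and 11.8 (9.34 to 15.02) in OVA. In Macrophage-like nuclei alone Cenpp had 4.98 (2.85 to 8.88) and 8.89 (6.14 to 13.2). On the other strand its gene body overlaps Aspn, Ogn, Ecm2 and others, and strand use in counting was not given in the sources used here. Efcab11 had 6.54 and 5.68, Bora, an activator of Aurora A, 5.23 and 4.61, Ccdc18, a centrosomal protein gene, 4.91 (8.07 without the deep barcodes) and 4.70, Zgrf1, a helicase gene, 4.31 and 4.74, and Rad18, a ubiquitin ligase of replication repair, 4.09 and 4.07. The haemoglobin genes Hba-a1, Hba-a2, Hbb-bs and Hbb-bt also ranked here, but without the deep barcodes their ratios fell, that of Hbb-bt from 6.86 to 4.86 (PBS) and from 8.93 to 2.13 (OVA). In the Macrophage-like class Hbb-bt gave 0 and 3 UMIs in cycling nuclei. Hba-a1 and Hba-a2, and Hbb-bs and Hbb-bt, are near-identical copies whose reads may be split.

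The genes lowest in cycling nuclei differed in how far they belonged to 1 class, from 36.0% of UMIs in the leading class (Ppargc1a) to 98.2% (Dnah3). Beside Calca and Ret, ILC2-like nuclei held most UMIs of Neb and of the ubiquitin ligase gene Rnf128, with ratios of 0.34 for both in the OVA library. Cemip, a hyaluronan-degrading protein gene with 86.5% of its UMIs in Fibroblast-like nuclei, gave 0 UMIs in 12 cycling against 205 in 911 remaining nuclei (PBS) and 18 in 22 against 1456 in 1139 (OVA, ratio 0.31; 0.18 to 0.49). Over all classes its PBS ratio was 0.31, and 0.13 without the deep barcodes. Wfdc17, of Macrophage-like nuclei, had ratios of 0.31 (0.14 to 0.63) and 0.37 (0.21 to 0.62) there, and Slc7a8, an amino acid transporter gene with 38.6% of its UMIs in that class, 0.33 and 0.38. Dnah3, a dynein gene of Ciliated-like nuclei, had 0.34 and 0.49 there, and over all classes its OVA ratio was 0.71 without the deep barcodes, no longer 2-fold lower. Bmp6 had ratios over all classes of 0.44 and 0.47, and 0.55 (PBS) without the deep barcodes. Ppargc1a had 0.44 and 0.38, and 0.22 in each library without them.

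Between the libraries, cycling nuclei differed in few genes. Within classes, 58 of 5816 genes had an OVA level of 2-fold or more that of PBS (0.997%) and 23 the reverse (0.395%), and in remaining nuclei 39 and 20 of 10130 were. With all gene UMIs as the denominator, mitochondrial ones included, the counts were 152 and 6, as the median of all genes then moved from 0.08 to 0.30 on the log2 scale. Most extremes came from Ciliated-like nuclei: Dnah5 (2.57), Fhad1 (2.15), Bmpr1b (2.14) and Ccdc17 (1.87) had 101 to 122 of their OVA UMIs in 7 such nuclei, while Cdc20b (-4.38) and Lrrc23 (-1.79) had 136 of 156 and 58 of 63 PBS UMIs in 8 such nuclei. Dnah5 rested on 3 PBS UMIs (interval 0.92 to 4.22), and without the deep barcodes Bmpr1b had 0.05, Dnah5 1.98, Ccdc17 1.11, Cdc20b -3.82 and Lrrc23 -1.12. Without Ciliated-like nuclei 41 genes were higher and 12 lower. Of the others Slc7a11, the cystine transporter gene, had 1.92 (1.25 to 2.59) in cycling and 0.90 in remaining nuclei. In Macrophage-like cycling nuclei it stood at 56.2 CPM (14 UMIs, PBS) and 201 CPM (162 UMIs, OVA). Remaining Macrophage-like nuclei had 107 and 259 CPM of Slc7a11. The rule genes lay between -0.52 (Anln) and 0.14 (Aspm). Nlgn1 (-1.41), Dmd (-1.40) and Xist (-1.27) were lower, at -1.61, -2.19 and -0.90 without the deep barcodes, so Xist was then within 2-fold. Xist was also lower in remaining nuclei (-0.61), and the sexes of the pooled fetuses were not given.

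Accessible chromatin was a readout the rule did not use. Cycling nuclei had a median of 14148 transposition counts in peaks in PBS and 14455 in OVA, against 6952 and 7613 in remaining nuclei. Compared within class and depth class, cycling nuclei had 1.49 times (PBS) and 1.44 times (OVA) the counts of the remaining ones, and 1.29 and 1.41 times without the deep barcodes. In the Macrophage-like class the medians were 13348 against 8148 (PBS) and 15090 against 9111 (OVA). Within depth classes this came to 1.20 and 1.52 times. The quartiles of the groups overlapped, with 6599 to 18672 in cycling and 4008 to 11698 in remaining Macrophage-like nuclei of the PBS library. ILC2-like cycling nuclei had 1.26 and 1.24 times the counts at matched depth, but not in every depth class. In OVA their median was 12592 against 8313 from 1000 to under 2000 UMIs (13 cycling nuclei). It was 12881 against 12884 from 2000 to under 4000 UMIs (17) and 18993 against 21493 from 4000 UMIs (5). The 12 Fibroblast-like cycling nuclei of the PBS library had a lower median than the remaining ones, 774 counts against 5576, although their summed counts came to 1.10 times at matched depth. Doublet calls, which carry counts of more than 1 nucleus, changed the overall ratios to 1.505 and 1.48 when left out.

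**Figure D5:**
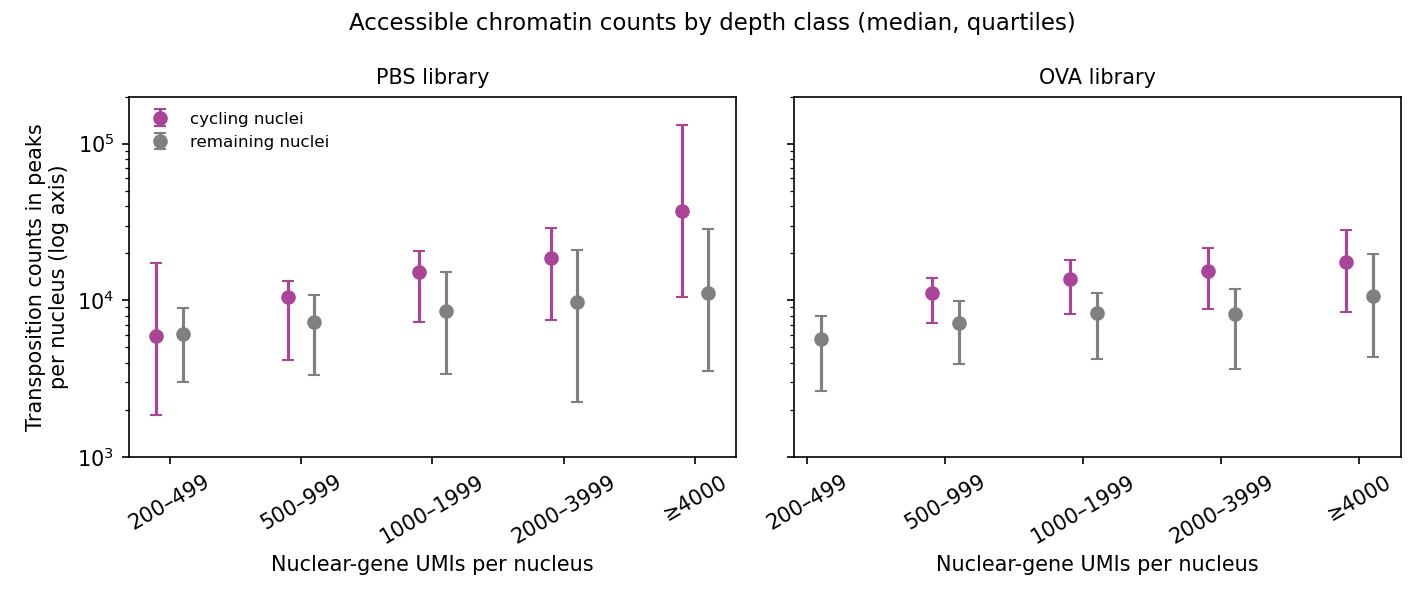
Transposition counts in peaks per nucleus (log axis) against classes of nuclear-gene UMIs, for cycling (purple) and remaining nuclei (grey) in PBS (left) and the OVA library (right); points are medians, bars quartiles, and groups of under 5 cycling nuclei are left out. From 500 UMIs upward the median of cycling nuclei lies above that of the remaining nuclei in every class, at 15122 against 8511 (PBS) and 13753 against 8288 (OVA) from 1000 to under 2000 UMIs.

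Accessibility at the starts of the rule genes, which the rule did not read, differed little between cycling and remaining nuclei. Counts in peaks within 1 kb of the 12 starts, per transposition count in peaks and within classes, were 1.08 times as high in cycling as in remaining nuclei in PBS (1.03 to 1.12) and 1.08 times in OVA (1.05 to 1.12). The medians over all genes were 0.999 and 1.02. Among the promoters printed above, Mki67 had 0.94 (0.82 to 1.07) and 1.28 (1.16 to 1.42), Top2a 1.08 and 1.10, Kif11 1.16 and 1.12, and Kif15 1.45 (1.26 to 1.67) and 0.99 (0.87 to 1.13). Of the other rule genes, Aspm was above equality in both libraries, at 1.28 (1.11 to 1.48) and 1.21 (1.06 to 1.38). Mki67, Cenpe and Knl1 had intervals above 1 in OVA alone, and Kif15 and Bub1b in PBS alone. S-phase genes had median promoter ratios of 1.04 and 1.08, and mitosis genes 1.08 and 1.07.

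Pooled over all classes, cycling nuclei also carried more mitochondrial RNA. Its median share was 47.2% of all gene UMIs in PBS and 38.2% in OVA, against 41.0% and 29.1% in remaining nuclei. With a limit of 20% in place of 60%, cycling nuclei were 3.13% and 4.36% of kept nuclei. The shares of mitochondrial RNA were not compared within classes, although 65.6% of cycling nuclei were Macrophage-like, so the class mix may differ. Where this RNA comes from was not tested.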

How the data were processed

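Per the labels and the processing notes of the authors, Cell Ranger ARC 2.0.1 was run on mm10, and the deposited matrices hold unnormalized whole counts: UMIs for genes, and transposition events for the peaks of either library. Depth was 11473400 gene UMIs in 8019 barcodes (PBS) and 13775000 in 5960 (OVA), of which 57.0% and 88.0% passed the filters. Levels are per nuclear-gene UMI, mitochondrial UMIs left out. Doublets were scored against simulated ones (2 per nucleus, 50 neighbours, 0.8% called per 1000 barcodes) and kept unless stated. Remaining nuclei were clustered (3000 variable genes without cell cycle, histone and mitochondrial genes, 30 components, 15 neighbours, Leiden resolution 1) with scikit-learn 1.9.0 and leidenalg 0.10.2, and named from markers. A name needed at least 3 markers raised 1.5-fold and a lead of 0.5 (log2) over the next type. Shares have Clopper-Pearson intervals, ratios conditional binomial or Mantel-Haenszel ones. With 1 library per group no test was made. Ratios were tested on simulated data. Text genes followed a rule of size or abundance within lists. Members and lists were chosen with earlier results of these data known.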

Additional observations from a re-analysis of the deposited data

Results flagged for a closer look

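The summed rule genes differed between the libraries in opposite directions in some classes, with every interval on its own side of 0. On the log2 scale, OVA over PBS, they were higher in the OVA library in Pericyte-like (0.74), AT2-like (0.39), Myofibroblast-like (0.93), Dendritic cell-like (1.48), Mast cell or basophil-like (1.43) and Mesothelial-like nuclei (1.44). They were lower in Ciliated-like nuclei (-1.52), whose rule-gene level was 1120 (PBS) and 390 (OVA) CPM. Of the Ciliated-like cycling nuclei, 3 in OVA and 0 in PBS were barcodes above 25000 gene UMIs. Such cycling barcodes of all classes in OVA had a low rule-gene level (551 CPM). Each class has 1 library per group, and the difference between classes was not tested. The Mesothelial-like value rests on 5 rule-gene UMIs in the PBS library, and the Mast cell or basophil-like value on 11.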

How the results depend on the processing

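No paired analysis was possible because PBS and OVA are single libraries. Of 160 alternatives over 34 results, 109 were labelled as unchanged and 51 as moved. Counts of genes were unchanged if they lay within a fixed fold limit of the value reported. Other results were unchanged if they lay inside its 95% interval. The difference in share at equal depth, whose interval covered 0, was the 1 result that changed sign. The share of cycling nuclei, 6.47% (PBS) and 10.3% (OVA), was 10.4% and 14.2% with at least 2 rule genes, 4.42% and 8.08% with at least 4, and 4.79% and 8.39% without Ect2 and Smc4. It was 3.13% and 4.36% with at most 20% mitochondrial UMIs, 11.95% and 12.5% with at least 500 genes, and 9.90% and 12.6% with a joint filter on RNA and chromatin counts. The difference at equal depth, 0.45 percentage points, was -0.35 at 1000 UMIs and 3.82 with no thinning. The rule-gene level (log2 0.17) was 0.37 over all gene UMIs, 0.25 without doublet calls and 0.065 at equal class mix. The AT1-like share in the PBS library was 0.79% without doublet calls, and the Macrophage-like shares were 11.5% and 20.5% without Ect2 and Smc4. With a minimum of 30 UMIs in place of 100, 514 genes were at least 2-fold higher and 505 lower in cycling nuclei (PBS), and 609 and 517 (OVA). With a minimum of 1 UMI, 2686 and 5649 (PBS) and 2680 and 5366 (OVA) were. Thinned to 500 UMIs, 54 (PBS) and 121 (OVA) were higher, and without barcodes above 25000 UMIs 164 were lower in the PBS library. The S-phase to mitosis ratio of 0.56 (PBS) was 0.59 without doublet calls, 0.53 without Ect2 and Smc4, 0.53 with at least 4 rule genes and 0.50 without the deep barcodes, and that of 0.61 (OVA) was 0.58 without Ect2 and Smc4 and 0.57 with at least 4 rule genes. The transposition ratio (1.49 and 1.44) was 2.14 and 1.78 by class alone, 1.505 and 1.48 without doublet calls, 1.25 and 1.37 with the joint filter and 1.29 and 1.41 without the deep barcodes. Promoter accessibility of the rule genes in the PBS library was 1.14 without doublet calls. Between the libraries 152 genes were higher and 6 lower over all gene UMIs, 297 and 181 with a minimum of 30 UMIs, and 12 were lower without Ciliated-like nuclei. The barcodes above 25000 UMIs and the Ciliated-like nuclei were left out as alternatives chosen after seeing the data. The cause of these shifts was not tested, apart from fewer or more genes passing a UMI minimum. Shares of cycling nuclei are limited by depth, as their rise across depth classes shows.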
